A study of Mus musculus with 14 samples.

Results

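The genes of retinoid synthesis, binding and reception were examined in *p65*(-/-) mouse embryonic fibroblasts (MEFs) complemented with wild type or acetylation-deficient p65. The set comprised 9 genes of the 27962 gene names on the array, namely *Stra6*, *Aldh1a1*, *Aldh1a2*, *Aldh1a3*, *Crabp1*, *Crabp2*, *Rara*, *Rarb* and *Rarg*, and every non-control probe carrying 1 of these names was taken, which gave 12 probes. The genes were chosen by their measured group differences on these same arrays, so that their levels are described here and no test of them is used as support. Of the 9 genes, 7 had a detected probe, that is, 1 well above background in all arrays of some group, and *Aldh1a2* and *Rarb* had none.

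Retinoic acid is a diffusible signal made from vitamin A. Retinol enters cells through the membrane receptor STRA6, is oxidised to retinal by retinol dehydrogenases and then irreversibly to retinoic acid by the retinaldehyde dehydrogenases of the ALDH1A family. CRABP1 and CRABP2 bind retinoic acid in the cytoplasm, and in the nucleus it acts through the receptors RARα, RARβ and RARγ, which bind DNA with a retinoid X receptor as partner and control genes of growth and differentiation, among them those of embryonic mesenchyme, from which fibroblasts derive.

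All cells were *p65*(-/-) NIH 3T3 MEFs infected with a lentivirus and kept as blasticidin-selected pools rather than clones. The virus carried wild type p65 (wt), the triple mutant KTR with lysines 310, 314 and 315 replaced by arginine, the double mutant K314/315R, or the empty vector pTV, which leaves cells without p65. After overnight starvation, cells of every line received mouse TNFα (30 ng/ml) during 3 h, and wt cells were also taken untreated (0 h). The study asked which genes need p65, or its acetylatable lysines, after 3 h of TNFα. There were 3 arrays for each of wt 0 h, wt 3 h, KTR 3 h and pTV 3 h and 2 arrays for K314/315R 3 h, and the age of the embryos was not given in the sources used here.

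Total RNA was hybridised to 14 one-colour whole mouse genome arrays. All levels below are log2 values of the processed spot signal relative to the 75th percentile of the same array, so that 0 is the 75th percentile and −1 is a signal of 1 part in 2 of it. Between 49.9% and 57.7% of spots per array were well above background, and the lowest signal that still counted as such lay between −5.2 and −4.0. Slides 1 to 3 each held 1 array of wt 0 h, wt 3 h, KTR and pTV with the same replicate number, whereas slide 4 held both K314/315R arrays and nothing else used here. For K314/315R, the cell line and the slide can therefore not be told apart. The brighter probe of *Rela*, the mouse gene of p65, gave 1.53 ± 0.01 (SD, n = 3) in wt 3 h and 1.18 ± 0.17 (SD, n = 3) in pTV, and since the knockout was of this gene and p65 came back from a vector, it does not check the labels. Of 10 fibroblast markers, 8 were above background on all arrays and 0 on none, as against 3 of 5 neural, 1 of 7 epithelial, 1 of 7 leukocyte, 0 of 5 endothelial and 0 of 4 skeletal muscle markers on all arrays. On no array were 1 neural, 3 epithelial, 3 leukocyte, 4 endothelial and 3 skeletal muscle markers above background. The values of the 9 genes on every array are plotted by group.

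**Figure D1:**
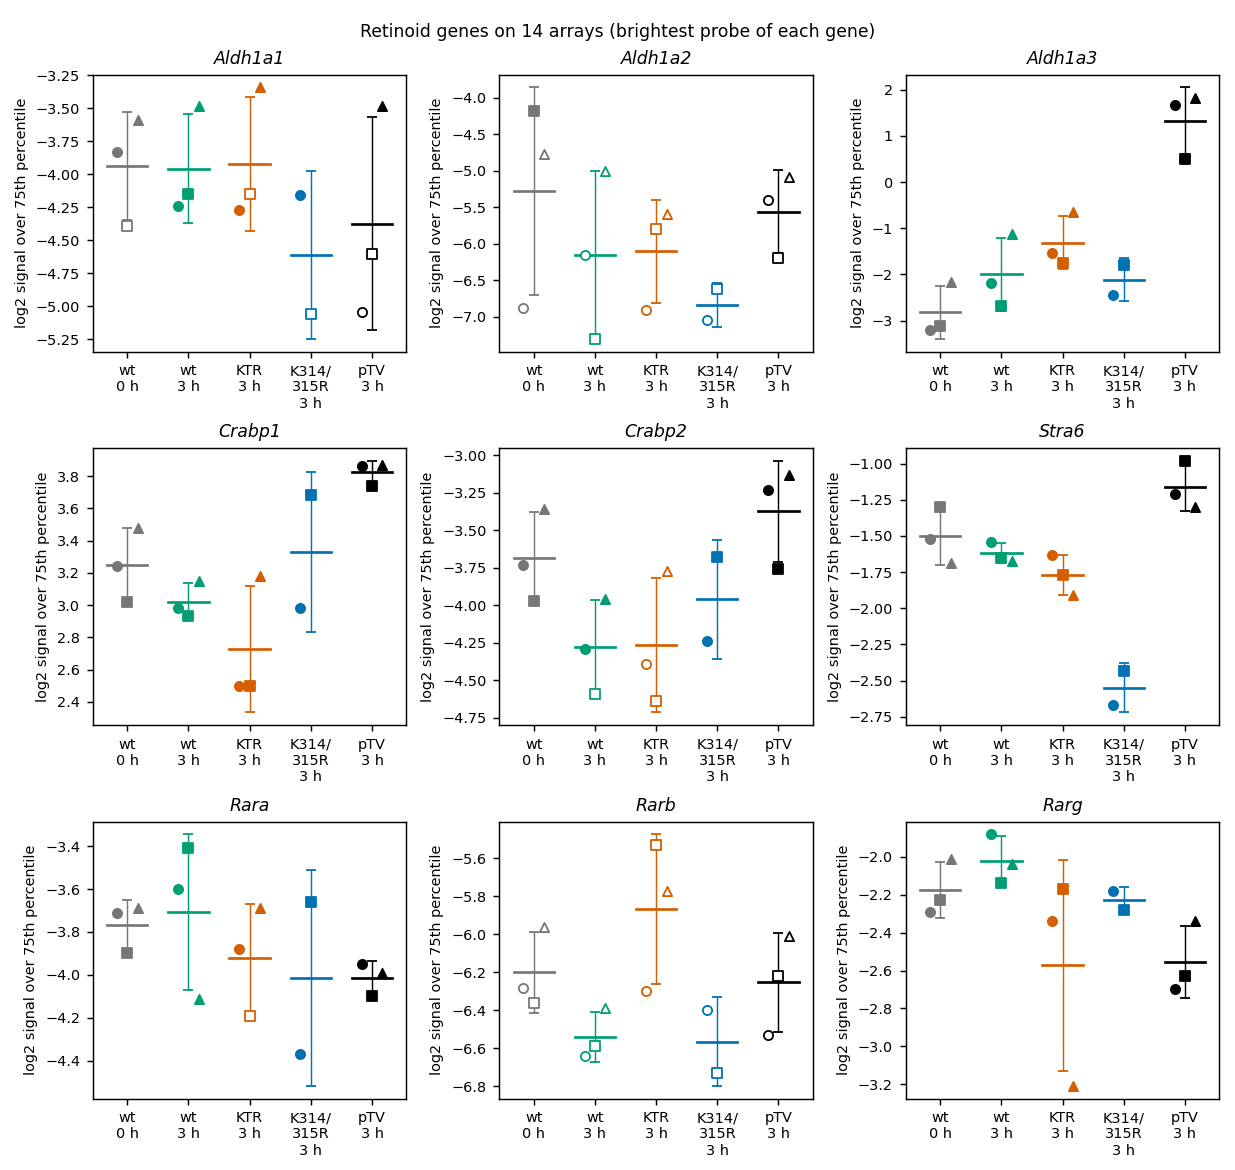
Level of the brightest probe of each of the 9 retinoid genes (log2 signal over the array's 75th percentile, vertical axes differ between panels) on 14 arrays in 5 groups. Circles, squares and triangles are replicates 1, 2 and 3, filled where the probe was well above background, and bars are the mean ± SD. The 3 pTV arrays of *Aldh1a3* lie between 0.49 and 1.83, above all 11 others, and both K314/315R arrays of *Stra6* lie below all 12 others.

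*Aldh1a3* encodes a retinaldehyde dehydrogenase that makes retinoic acid. Its brighter probe (A_52_P87843) was well above background on all 14 arrays. It gave 1.66, 0.49 and 1.83 on the 3 pTV arrays and −2.18, −2.68 and −1.13 on the wt 3 h arrays. In KTR cells the values were −1.53, −1.75 and −0.66. In K314/315R cells they were −2.45 and −1.79, and in untreated wt cells −3.20, −3.11 and −2.16. Every pTV array therefore lay above every array of the cells that carried a form of p65. The pTV mean of 1.33 ± 0.73 (SD, n = 3) was 9.99-fold that of wt 3 h at −1.99 ± 0.79 (SD, n = 3), a log2 difference of wt minus pTV of −3.32 (SE 0.47). It was 6.22-fold that of KTR and 10.9-fold that of K314/315R. Within slides 1, 2 and 3 the wt minus pTV difference was −3.84, −3.17 and −2.95. All mutant and wt comparisons over pTV share the same 3 pTV arrays. In RNA from whole cultures, a change in the share of cells with a transcript and a change in the amount per cell cannot be told apart.

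The dimmer *Aldh1a3* probe (A_52_P113518) was well above background only on the 3 pTV arrays, at −2.98, −3.94 and −3.53. On the other 11 arrays it lay between −7.16 and −4.95. Because wt 3 h gave no signal above background at this probe, only a bound can be given: pTV was at least 2.72-fold higher than wt 3 h, at least 1.74-fold higher than KTR and at least 2.79-fold higher than K314/315R. For such bounds the dim group was set, array by array, to the weakest signal still well above background, or to the probe's own where that was larger. Over the 14 arrays both probes had a Pearson correlation of 0.956 and a Spearman correlation of 0.873, as a description of arrays that share groups and slides.

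Among the cells with p65, *Aldh1a3* levels overlapped between neighbouring groups in the order KTR, wt 3 h, K314/315R and wt 0 h. The KTR mean exceeded that of wt 3 h by 0.68 (SE 0.47) and did so on each slide, by 0.65, 0.93 and 0.47. The wt cells at 3 h exceeded those at 0 h by 0.83 (SE 0.47), again on each slide, by 1.02, 0.44 and 1.03. In both cases the differences within slides had 1 direction while the arrays of the groups overlapped. KTR and K314/315R did not overlap, with a difference of 0.81 (SE 0.53). The plot of both probes joins the arrays of each slide.

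**Figure D2:**
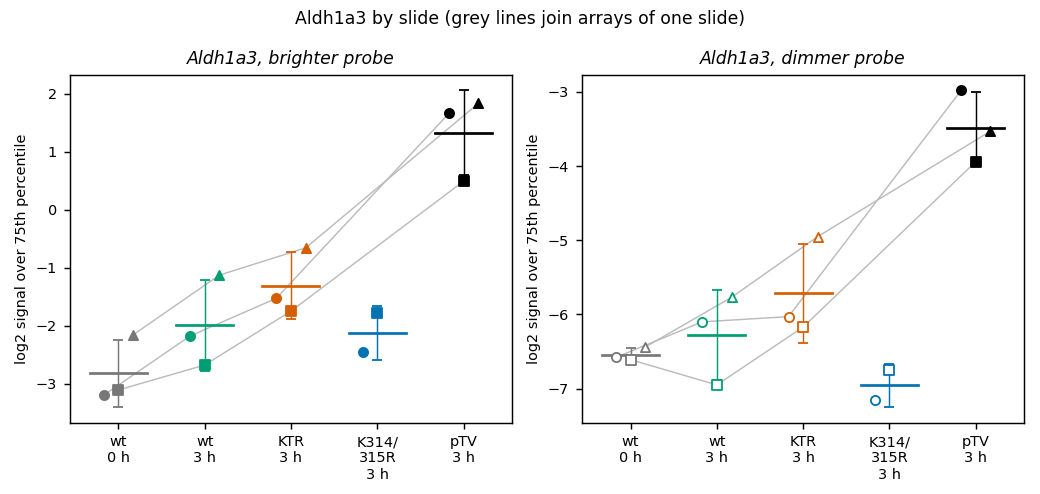
*Aldh1a3* level (log2 signal over the array's 75th percentile) at the brighter and the dimmer probe, by group. Grey lines join arrays of 1 slide, filled symbols are well above background, and bars are the mean ± SD. At both probes all 3 slides climb steeply to pTV, and at the dimmer probe only the pTV arrays are above background.

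The other retinaldehyde dehydrogenases were dim. *Aldh1a1*, an enzyme of liver and retina among other tissues, was above background on 9 of 14 arrays and lay between −5.06 and −3.34. Its highest value in wt 0 h, wt 3 h, KTR and pTV was on replicate 3 each time (−3.59, −3.48, −3.34 and −3.48), so that slide 3 was the brightest for this probe in all 4 of these groups. All groups overlapped, and wt 3 h minus pTV was 0.42 (SE 0.41). *Aldh1a2*, the main enzyme of the early embryo, was above background on 1 of 14 arrays, a wt 0 h array at −4.18, and the others lay between −7.30 and −4.77. Its level can thus not be ordered between groups.

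*Crabp1* encodes a cytoplasmic protein that binds retinoic acid and keeps it from the nucleus. Its probe lay above the 75th percentile on all 14 arrays. The pTV arrays gave 3.86, 3.74 and 3.87 and the wt 3 h arrays 2.98, 2.93 and 3.15. The KTR arrays gave 2.50, 2.50 and 3.18, those of K314/315R 2.98 and 3.68, and those of wt 0 h 3.24, 3.02 and 3.48. The pTV arrays thus lay above all others, closely together (SD 0.07, n = 3). Wt 3 h minus pTV was −0.80 (SE 0.21), or −0.88, −0.81 and −0.72 within slides, a 1.74-fold higher level in pTV. KTR minus pTV was −1.09 (SE 0.21) and K314/315R minus pTV −0.49 (SE 0.23). Below pTV, neighbours in the order K314/315R, wt 0 h, wt 3 h and KTR overlapped.

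The bases before the annotated start of *Crabp1* are shown because it and *Stra6* were both highest without p65. This stretch, from RefSeq on the plus strand of GRCm38.p6 at chr9:54764498-54764747, held 5 GC boxes (GGGCGG on either strand, in capitals), a motif found in 35.7% of 32851 annotated windows of the same kind. It held neither a κB match nor a retinoic acid response element of the DR5 or DR2 type.

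Crabp1: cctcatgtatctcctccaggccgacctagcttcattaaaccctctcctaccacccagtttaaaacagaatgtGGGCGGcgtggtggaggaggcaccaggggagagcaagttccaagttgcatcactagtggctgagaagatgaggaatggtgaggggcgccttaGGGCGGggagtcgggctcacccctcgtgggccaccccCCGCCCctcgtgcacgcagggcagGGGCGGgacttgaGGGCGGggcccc

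*Crabp2* encodes the binding protein that hands retinoic acid to its receptors. It was dim, with 10 of 14 arrays above background. The pTV arrays gave −3.23, −3.76 and −3.13 and the wt 3 h arrays −4.29, −4.59 and −3.96, without overlap. Wt 3 h minus pTV was −0.91 (SE 0.27), and −1.07, −0.83 and −0.84 within slides, but −0.19 with normexp background correction. In KTR cells no array was above background and the level was at least 1.70-fold below pTV. Wt 0 h (−3.73, −3.97 and −3.36) overlapped pTV. Wt 3 h was lower than wt 0 h on each slide, by −0.57, −0.63 and −0.60, although the groups overlapped and the mean difference of −0.60 (SE 0.27) turned to 0.50 with normexp.

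*Stra6*, the membrane receptor that takes up retinol from its plasma carrier, was above background on all arrays. The pTV arrays gave −1.21, −0.98 and −1.30 and the wt 3 h arrays −1.54, −1.65 and −1.67. Those of KTR gave −1.63, −1.77 and −1.91, those of K314/315R −2.67 and −2.43, and those of wt 0 h −1.52, −1.30 and −1.69. K314/315R lay below all other arrays and pTV above all but 1 of wt 0 h, which it met. Wt 3 h minus pTV was −0.45 (SE 0.13), or −0.32, −0.67 and −0.37 within slides, and −0.14 with normexp. K314/315R was lower than wt 3 h by −0.93 (SE 0.14), a 1.91-fold higher level in wt, and lower than pTV by −1.39 (SE 0.14). Their slide held no array of another line, so that this difference has no value within a slide. KTR minus K314/315R was 0.78 (SE 0.14), and KTR minus wt 3 h was −0.15 (SE 0.13) with overlapping arrays.

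Of 4 annotated starts of *Stra6*, the second carried a κB match (in capitals), whose first base lay at −191 from the start, on the plus strand of chr9:58129099-58129348. Such a match was present in 8.46% of all windows and in 9.55% of genes with a window, and it is shown since κB is the sequence that p65 binds. *Rara* carried κB matches too, 3 of them in its first window, and its sequence is not printed.

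Stra6: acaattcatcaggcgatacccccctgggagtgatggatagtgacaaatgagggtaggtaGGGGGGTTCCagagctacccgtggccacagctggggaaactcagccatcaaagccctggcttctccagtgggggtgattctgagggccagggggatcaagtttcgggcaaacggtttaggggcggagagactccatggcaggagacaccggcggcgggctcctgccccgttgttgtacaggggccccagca

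At their brightest probes, the detected receptors differed less between wt 3 h and pTV than *Aldh1a3*, *Crabp1* and *Crabp2*. *Rarg* differed more than *Stra6*. *Rara*, the broadly expressed receptor RARα, was above background on 13 of 14 arrays and lay between −4.37 and −3.41. Its group means ran from −4.02 in pTV to −3.71 in wt 3 h, all groups overlapped other than wt 0 h and pTV, and wt 3 h minus pTV was 0.31 (SE 0.21) with −0.12 on slide 3. *Rarg*, the receptor RARγ of skin and skeletal tissue, had 2 probes above background everywhere. The brighter (A_51_P372853) gave −1.88, −2.14 and −2.04 in wt 3 h, −2.70, −2.63 and −2.34 in pTV, and −2.34, −2.17 and −3.21 in KTR. K314/315R gave −2.18 and −2.28 and wt 0 h −2.29, −2.23 and −2.01. Wt 3 h lay above pTV without overlap, by 0.54 (SE 0.22), and by 0.82, 0.49 and 0.31 within slides. The dimmer probe (A_51_P372858) gave 0.42 (SE 0.34), also without overlap. *Rarg* was the only one of the 5 genes without overlap between wt 3 h and pTV that was higher in wt.

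At the brighter probe the KTR arrays of *Rarg* lay below those of wt 3 h, by −0.56 (SE 0.22), which rested on replicate 3. Within slides the difference was −0.47, −0.04 and −1.18, and without KTR replicate 3 it was −0.24. At the dimmer probe KTR minus wt 3 h was −0.33 (SE 0.34), and the arrays overlapped. For K314/315R the probes disagreed, with −0.21 (SE 0.25) over wt 3 h at the brighter and 0.56 (SE 0.38) at the dimmer. They also differed in sign for wt 3 h over wt 0 h, with 0.16 (SE 0.22) at the brighter and −0.71 (SE 0.34) at the dimmer, and the groups overlapped at both. Over 14 arrays the *Rarg* probes had a Pearson correlation of 0.232 and a Spearman correlation of 0.424, far looser than those of *Aldh1a3*.

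*Rarb* encodes RARβ, which retinoic acid itself induces through a response element in the promoter. Neither of its 2 probes was above background on any array. The brighter, averaged over 10 spots per array, lay between −6.73 and −5.53, under the lowest signal well above background, and no order of groups can be given. Among the 7 genes with a RefSeq window, its window alone held a DR5 element, 2 half-sites (the hexamer AGGTCA or AGTTCA, or the variant GGGTCA or the variant GGTTCA, searched on both strands) on 1 strand spaced by 5 bases. The element, in capitals, starts at −53 on the minus strand, in chr14:16575477-16575726. It was found in 31 of 27025 genes with a window, or 0.115%, and is shown because *Rarb* is the textbook target of this pathway. A DR2 element, with a spacing of 2 bases, was in none of the member windows and in 0.268% of all.

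Rarb: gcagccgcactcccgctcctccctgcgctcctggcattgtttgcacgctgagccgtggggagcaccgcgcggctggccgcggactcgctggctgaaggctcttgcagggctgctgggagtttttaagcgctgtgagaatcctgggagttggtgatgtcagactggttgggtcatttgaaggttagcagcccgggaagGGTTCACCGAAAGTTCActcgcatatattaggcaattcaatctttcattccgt

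Windows from 250 bases before to 50 after the start were at hand for 7 of the 9 genes, 15 in all, and not for *Aldh1a3* and *Crabp2*. κB matches were in the windows of *Rara* and *Stra6* among the 7 genes. A match describes the letters of a window and no occupancy. The map of matches shows them by distance.

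**Figure D3:**
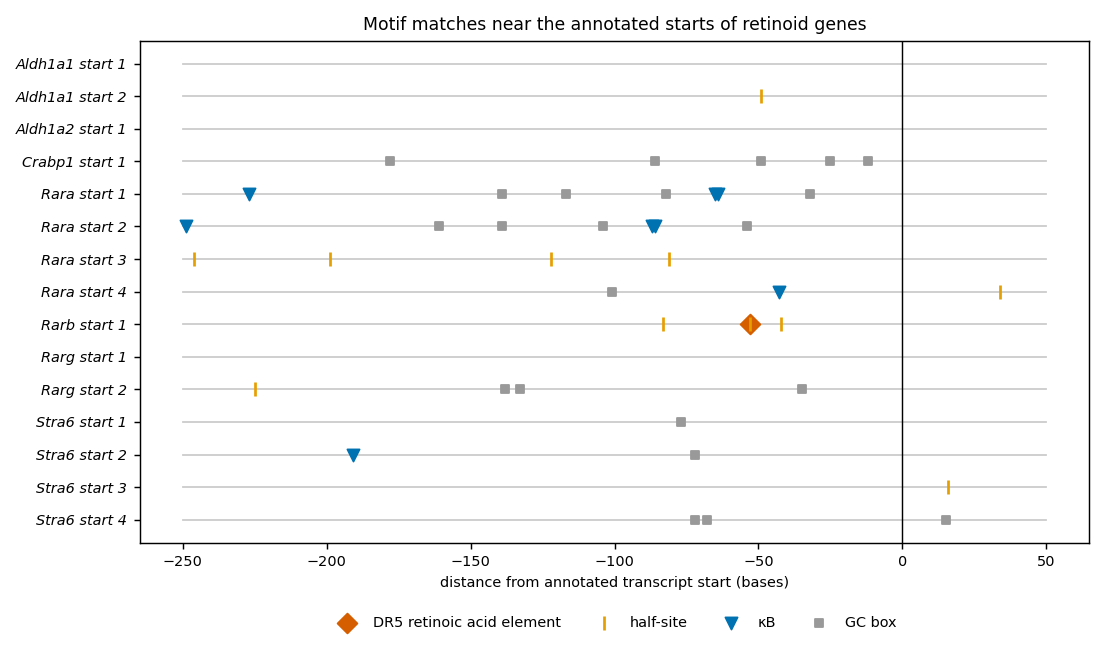
Motif matches in the 15 windows of 7 retinoid genes, against distance from the annotated start (bases, 0 is the start). The diamond is the DR5 element of *Rarb* at −53. Bars are half-sites in the windows of any gene, triangles κB matches and squares GC boxes, and both strands were searched.

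Set side by side, 5 of the 7 detected genes did not overlap between wt 3 h and pTV, 4 of them lower in wt (*Aldh1a3*, *Crabp1*, *Crabp2* and *Stra6*) and 1 higher (*Rarg*). Across all tested probes 34.5% did not overlap, 18.3% lower and 16.2% higher in wt. With limma and Benjamini-Hochberg adjustment over all probes, a call needed an adjusted p under 0.05 and a fold over 2 (over pTV) or over 1.8 (other comparisons). As a description of how the genes were chosen, *Aldh1a3* alone of the 7 met this rule in wt 3 h over pTV, where 5.04% of probes did, and 1.46% did as lower in wt. *Aldh1a3* and *Crabp1* met it in KTR over pTV (4.68% of probes), with 4 of 7 genes without overlap (28.6% of probes), and *Aldh1a3* and *Stra6* in K314/315R over pTV (8.86%), also with 4 of 7 without overlap (49.6%). *Crabp1* in KTR over pTV fell under the fold of 2 with normexp (−0.91) and without KTR replicate 1 or KTR replicate 2 (−0.98 each). As the genes were chosen with these values known, nothing is read from the counts. The median difference of the 7 in wt 3 h over pTV was −0.45, and −0.03 over all tested probes.

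Between the lines with p65 and over time, few of the 7 genes met the rule. In wt 3 h over wt 0 h 0 of 7 met it (1.55% of probes) and 0 were without overlap (30.4% of probes), with a median of −0.02. In KTR over wt 3 h 0 of 7 met it (0.167%) and *Rarg* was without overlap at its brighter probe (14.2%). In K314/315R over wt 3 h *Stra6* met it (1.2%), and *Stra6* and the brighter probe of *Rarg* were without overlap (36.2%). *Stra6* no longer met it with normexp (−0.86), with quantile normalization, in a fit of both groups alone, or without wt 3 h replicate 2 or either K314/315R array (−1.05 to −0.82). Between KTR and K314/315R 0 of 7 met it (2.55%), and *Aldh1a3* and *Stra6* were without overlap (30.8%), both higher in KTR.

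**Figure D4:**
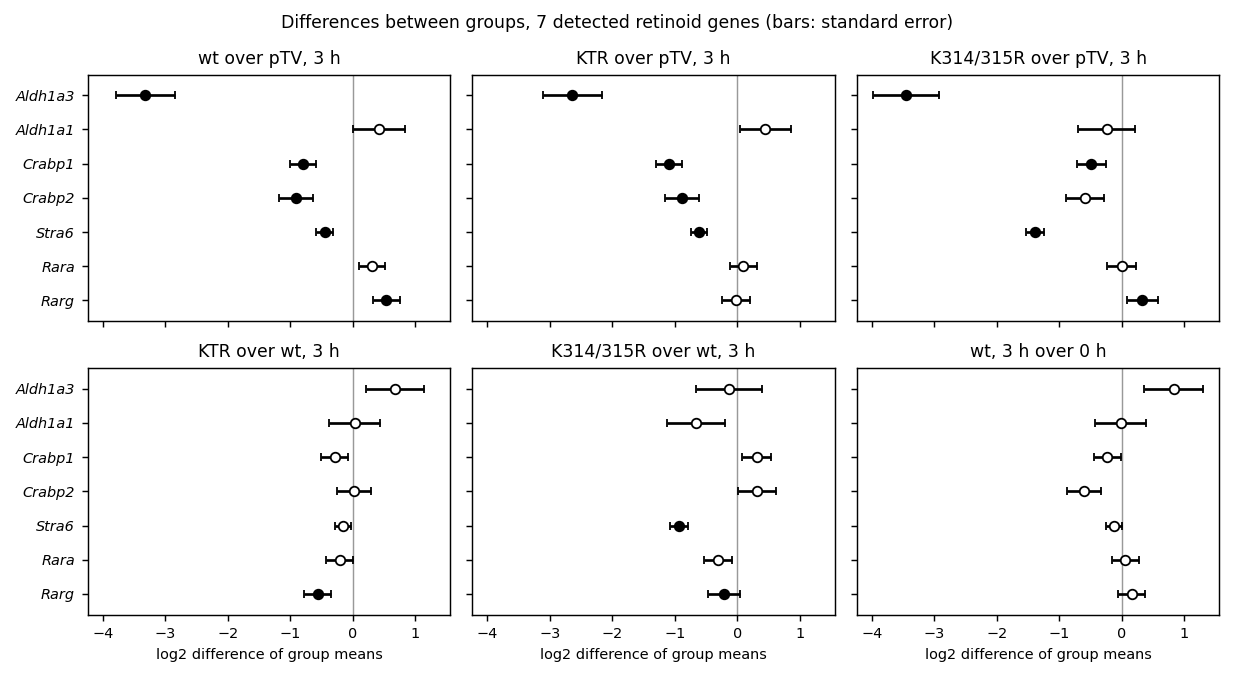
Log2 differences of group means (first group minus second, horizontal axis) for the 7 detected retinoid genes in 6 comparisons. Bars are the standard error from limma, and filled points mark genes whose arrays did not overlap. *Aldh1a3* lies at −3.32, −2.64 and −3.45 in the 3 comparisons over pTV, and *Stra6* at −0.93 in K314/315R over wt.

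Other genes differed between wt 3 h and pTV too, among them markers of cell state. By limma, the fibroblast receptors *Pdgfra* and *Pdgfrb* were higher in wt 3 h by 1.77 (adjusted p = 3.55e-06) and 1.99 (adjusted p = 6.13e-06), and *Thy1* was lower by −1.19 (adjusted p = 8.53e-05). The neural progenitor filament *Nes* was lower by −1.25 (adjusted p = 3.66e-06). The epithelial keratin *Krt18* stood at −2.53 (adjusted p = 0.000962), but its probe was well above background on only 5 arrays. Its mean over all arrays was −4.63, within the range of the lowest signals well above background (−5.2 to −4.0). The size of the *Krt18* difference is therefore uncertain, no bound was computed for it, and nothing is read from its call. The summed level of the 5 neural markers was 17.7 to 20.6 times the 75th percentile in pTV and 8.56 to 9.37 times in wt 3 h, and that of the 7 leukocyte markers was 0.381 to 0.776 and 0.32 to 0.364 times. The sums overlapped for the 10 fibroblast markers (1070 to 1270 and 1120 to 1280), the 7 epithelial markers (0.434 to 0.603 and 0.302 to 0.517), the 5 endothelial markers (0.071 to 0.105 and 0.0717 to 0.0962) and the 4 skeletal muscle markers (0.114 to 2.17 and 0.0815 to 0.15). The part of these markers in the retinoid values was not tested.

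The further steps of the pathway were followed in 40 other retinoid genes, of which 38 were on the array and 20 were tested. In wt 3 h over pTV 2 of 20 were called (3.59% of all probes were called higher), both higher and both retinal or retinol oxidoreductases. *Dhrs3*, which reduces retinal back to retinol and is itself induced by retinoic acid, gave −3.44, −4.08 and −4.35 in wt 3 h and −4.39, −6.38 and −5.76 in pTV. It rose by 1.55 (limma, adjusted p = 0.0212), with no pTV array above background, which makes it at least 1.62-fold higher. This call was lost with normexp (0.39, adjusted p = 1), without a filter on dim probes (1.55, adjusted p = 0.053) and in a fit of both groups alone (adjusted p = 0.103). It was also lost without wt 3 h replicate 1 (1.30, adjusted p = 0.0979), pTV replicate 2 (1.12, adjusted p = 0.0835) or pTV replicate 3 (1.43, adjusted p = 0.0731). *Dhrs9*, a retinol dehydrogenase, was above background on the 3 wt 3 h arrays alone, at −4.62, −4.55 and −4.42. It was at least 1.17-fold above pTV and at least 1.07-fold above wt 0 h. As it was tested only because of the group in which it was high, its calls in these comparisons support nothing, and with normexp both were lost (0.48 over pTV and 1.19 over wt 0 h).

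The remaining steps held no call in wt 3 h over pTV. Of storage and transport genes 0 of 4 tested were called, with *Rbp4*, the plasma carrier, at −0.22 (limma, adjusted p = 0.469). Of the enzymes that degrade retinoic acid, *Cyp26b1* was above background on all arrays and stood at −0.37 (adjusted p = 0.121), and *Cyp26a1* was above background on none. The receptor partners *Rxra* and *Rxrb* stood at 0.30 (adjusted p = 0.109) and 0.16 (adjusted p = 0.577). Over the 20 genes the median was −0.06. In KTR over wt 3 h limma called 0 of 20 (1 at an unadjusted p under 0.05), in K314/315R over wt 3 h 0 (6 unadjusted) and in KTR over K314/315R 0 (4 unadjusted).

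Genes known to respond to retinoic acid moved in both directions. Of 35, 34 were on the array and 23 tested, and in wt 3 h over pTV 3 rose and 1 fell by limma, against 5.04% of all probes. *Igfbp3*, a binding protein of insulin-like growth factors, gave 3.54, 3.09 and 3.38 in wt 3 h and 1.40, 0.98 and 1.16 in pTV, a rise of 2.16 (adjusted p = 3.92e-06), and its other probe rose by 1.35 (adjusted p = 0.00226). *Tgm2*, tissue transglutaminase, rose by 1.07 (adjusted p = 0.000466). Its other probes gave 1.08 (adjusted p = 0.0386), which was called, and 0.97 (adjusted p = 0.016), which was not, and with normexp the call was lost (0.87, adjusted p = 0.0961). The other gene that rose, *Dhrs3*, is given above. *Dusp6*, a phosphatase of ERK kinases, was 4.85, 4.97 and 5.30 in pTV and 3.45, 3.68 and 4.0 in wt 3 h, lower by −1.33 (adjusted p = 0.000732). The list median was −0.14, against −0.03 over all probes. Among genes with an adjusted p under 0.05 but a fold under 2, which had both signs, and named after their values were seen, *Gprc5a* stood at −0.92 (adjusted p = 0.00199) and *Thbd* at −0.42 (adjusted p = 0.0198).

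By TNFα, 2 of the 23 responsive genes rose in wt cells by limma, where 1.12% of all probes were called higher. *Igfbp3* rose by 0.97 (adjusted p = 0.00779) from 2.50, 2.12 and 2.47 at 0 h. Its other probe gave 0.66 (adjusted p = 0.169) and was not called, and with normexp the call was lost (0.67, adjusted p = 0.594). *Dusp6* rose by 0.98 (adjusted p = 0.0187) from 2.63, 2.76 and 2.83. This call was lost when any of wt 3 h replicates 2 and 3 or of the 3 wt 0 h arrays was left out (0.83 to 1.02, adjusted p 0.0543 to 0.0842). It was also lost without a filter on dim probes (0.98, adjusted p = 0.056) and with normexp (0.67, adjusted p = 0.594). *Dusp6* was thus higher at 3 h than at 0 h in wt cells and higher still in pTV. Limma called 0 of 23 in KTR over wt 3 h (2 unadjusted), in K314/315R over wt 3 h (5 unadjusted) and in KTR over K314/315R (4 unadjusted).

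Relatives of the members, 16 aldehyde dehydrogenases and 12 intracellular lipid-binding proteins, served to see whether family members resembled them. Of these 28, 17 were tested. *Fabp4*, the fatty acid carrier of fat cells, rose in wt 3 h over pTV by 1.08 (limma, adjusted p = 0.000925), with values of 1.39, 0.88 and 0.93 in wt 3 h and 0.23, −0.20 and −0.08 in pTV, and its 2 other probes gave 1.18 and 1.19. It thus went the other way from *Crabp1* and *Crabp2*. It was the 1 call among the 17 tested relatives, against 5.04% of all probes. Over 27 alternatives the wt 3 h minus pTV difference of *Fabp4* lay between 0.79 and 1.21, so that in some it fell under the fold of 2. None of the 12 tested aldehyde dehydrogenases was called there, and *Aldh2*, the mitochondrial acetaldehyde enzyme, stood at −0.21 (adjusted p = 0.376). By TNFα (5 unadjusted), in KTR over wt 3 h (3 unadjusted) and in K314/315R over wt 3 h (3 unadjusted) limma called 0 of 17. Between KTR and K314/315R it called *Aldh1l1*, an enzyme of folate metabolism, at −2.33 (adjusted p = 0.0131).

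**Figure D5:**
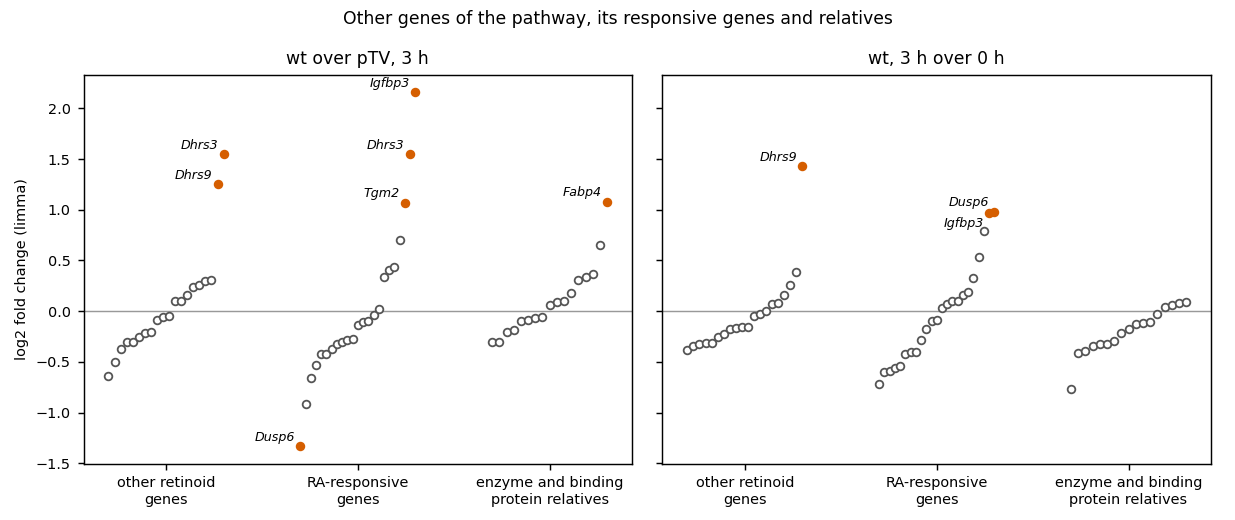
Log2 fold changes (limma, vertical axis) of tested genes in 3 lists, each sorted by value, for wt over pTV at 3 h and for wt at 3 h over 0 h. Filled points passed the call rule and are named. *Igfbp3* is highest at 2.16 and *Dusp6* lowest at −1.33 in wt over pTV, while most genes of each list lie between −0.5 and 0.5.

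The genes whose levels followed the members most closely over the 14 arrays were sought among tested genes by Pearson correlation, for the members whose group means spanned over 1 on the log2 scale. These correlations describe arrays that share groups and slides. Closest to *Aldh1a3* were *Adra2a*, the α2A-adrenergic receptor (r = 0.983), *Arc*, an immediate early gene (r = 0.972), and *Prkab2*, a subunit of the AMP-activated kinase (r = 0.972). *Adra2a* averaged −0.18 in pTV and −2.20 in wt 3 h, with KTR at −1.92. Their correlations remained between 0.825 and 0.893 after the group means had been subtracted. Among the closest to *Crabp1* were *Gria1*, an AMPA receptor subunit (r = 0.936), and *Pdlim3* (r = 0.924). *Gria1* averaged 2.43 in pTV, 0.81 in wt 3 h and 0.37 in KTR. Closest to *Stra6* were *H1foo* (r = 0.958), the nuclear pore gene *Tpr* (r = 0.944) and *Mpp7* (r = 0.943). *Mpp7* averaged −3.90 in K314/315R, −2.89 in wt 3 h and −2.12 in pTV, and its correlation with *Stra6* within groups was 0.438.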

How the data were processed

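The authors hybridised Cy3-labelled cRNA to one-colour Agilent arrays and deposited, for every array, scanner intensities from Agilent Feature Extraction 9.1 (per the labels; per the file headers version 9.1.3.1 read both K314/315R arrays and version 9.1.1.1 the remaining ones, so that the version cannot be told apart from this line either), corrected by that software for background but not scaled between arrays. A table of intensities that the authors had normalised was also deposited and served as an alternative. Spots marked as outliers, 1 to 326 an array, were dropped, replicate spots averaged, and log2 values taken relative to the 75th percentile of each array (intensities of 966.8 to 1442). Tests covered the 22172 of 41174 probes that were well above background in all arrays of some group. R 4.3.3 with limma 3.58.1 fitted all 14 arrays together, two-sided, with Benjamini-Hochberg adjustment, and the code was tested on simulated data. The precision is limited by 2 or 3 arrays per group, and p-values cover the spread between cultures of 1 pool per line.

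A gene was represented by its brightest probe. The members and lists were chosen with earlier results of these data known. Named were all members, up to 5 called genes per list and comparison by size of change, the 3 most correlated genes per member, and *Rela*, and a few single genes are not reported here. Slides 1 to 3 pair the replicate numbers: deviations of same-number arrays correlated by 0.308 to 0.613 (18 pairs) and others by −0.510 to 0.0954 (36 pairs). With K314/315R the ranges were −0.101 to 0.411 (8 pairs) and −0.416 to 0.416 (16 pairs). Alternatives changed the background correction, scaling, filter, probe choice, block, samples fitted and p. Promoter windows, symbols and their build are RefSeq's (GRCm38.p6), and figures were drawn with matplotlib 3.10.9.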

Additional observations from a re-analysis of the deposited data

Results flagged for a closer look

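*Aldh1l1*, which turns formyl-tetrahydrofolate into tetrahydrofolate, differed between the 2 mutants by a direct test. KTR arrays gave −2.36, −3.60 and −4.40, of which 1 was well above background, and K314/315R arrays gave −1.26 and −0.99. The wt 3 h arrays gave −2.16, −2.67 and −2.29 and overlapped those of KTR. Limma called neither KTR over wt 3 h (−1.08, adjusted p = 0.383) nor K314/315R over wt 3 h (1.25, adjusted p = 0.15). KTR minus K314/315R was −2.33 (limma, adjusted p = 0.0131). The call was lost without K314/315R replicate 2 (−2.20, adjusted p = 0.101), in a fit of these 2 groups alone (adjusted p = 0.137) and with normexp (−1.69, adjusted p = 0.744). K314/315R had a slide of its own, and the gene is among those that the study picked from these samples.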

How the results depend on the processing

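The wt 3 h minus pTV difference of *Aldh1a3* stayed between −3.75 and −2.56 over 27 alternatives (26 for *Crabp2*), that of *Crabp1* between −0.91 and −0.76, *Crabp2* between −1.11 and −0.19, *Stra6* between −0.52 and −0.14 and *Rarg* between 0.43 and 0.65. With normexp, which moved the median of all probes by 0.11 in wt 3 h over wt 0 h, calls in wt 3 h over pTV numbered 0 other retinoid, 2 responsive and 0 related genes, in wt 3 h over wt 0 h 0 other retinoid and 0 responsive genes, and in KTR over K314/315R 0 relatives. The *Stra6* call in K314/315R over wt 3 h was lost (0 members) with normexp, with quantile normalization and in a fit of both groups alone. Without a filter on dim probes, 2 relatives were called in wt 3 h over pTV, 4 responsive genes in KTR over wt 3 h and 2 in KTR over K314/315R. With only probes above background on all arrays, 0 other retinoid genes were called in wt 3 h over pTV and over wt 0 h, and 0 relatives in KTR over K314/315R. Averaging probes left 1 responsive gene in wt 3 h over wt 0 h. A fit of the compared groups alone left 1 other retinoid gene in wt 3 h over pTV and 0 relatives in KTR over K314/315R, and an unadjusted p gave 1 relative in each mutant over wt 3 h. The replicate block gave 1 other retinoid gene in KTR over K314/315R and changed no other count by over 1.5 times. Without 1 array at a time, wt 3 h over pTV gave 1 to 2 members, 1 to 2 other retinoid, 2 to 5 responsive and 0 to 1 related genes, and wt 3 h over wt 0 h 1 to 2 responsive genes. K314/315R over wt 3 h gave 0 to 1 members (0 without wt 3 h replicate 2 or either K314/315R array) and 0 to 1 relatives, KTR over wt 3 h 0 to 1 relatives, and KTR over K314/315R 0 to 1 members, other retinoid genes and relatives. A lone K314/315R array was assumed to vary like the other groups. The cause of these changes was not tested. The slide as a fixed block was not run where K314/315R was compared. Signals near background limit *Aldh1a1*, *Aldh1a2*, *Crabp2* and *Rarb*.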
